A study of Homo sapiens with 2 samples.

Results

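The enzymes that make cholesterol and fatty acids, together with the proteins that control them, were followed in SW48 cells after knockdown of the transcription factor YY1. The set held 34 genes, chosen by symbol as known targets or regulators of the sterol regulatory element-binding proteins (SREBPs), and 31 of them had a row in the table used. Earlier results of these data were known when the set was chosen, so its counts beside those of other genes are a description only. The other 3, FDFT1, FADS1 and LPIN1, were not analysed here. SW48 is an established human colorectal cancer cell line. The siYY1 cells received 1 small interfering RNA (siRNA) product against YY1, and the siControl cells received a negative control siRNA. Both siRNAs were given at 5 nmol/L by lipid transfection in medium with serum, and RNA was taken after 3 days. Each group was 1 array of 1 culture, hybridised to a whole-transcript GeneChip, and the labels name no genetic change shared by both groups. The 31 genes were compared with all 17687 named genes, or with the 8844 of these that were at least as bright, averaged over the arrays, as the median named gene (a log2 value of 7.54), called the kept genes below.

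Because each group was 1 array, neither a replicate error nor a test could be had, and every difference describes these 2 arrays alone. Differences are log2 values of siYY1 minus those of siControl, as deposited, and "past 1.5-fold" means a difference of at least 0.585 in size, a rule of size and not a test. Precision is limited by the number of arrays. The level of YY1 was not analysed here, so the extent of the knockdown is unknown. All 31 genes passed the filter on level. Their lowest value on either array was 9.22, above the highest value of 348 olfactory receptor genes, which are largely silent outside olfactory neurons (7.13 in siYY1 and 7.60 in siControl). Of 14 colon epithelial markers, 8 were kept. EPCAM, CDX2, CDH1 and KRT8 lay above 0 (0.01 to 0.19), and CDH17, KRT18 and KRT19 below it (-0.34 to -0.02). CEACAM5, with 12.42 in siYY1 and 13.80 in siControl (difference -1.38), differed more than any of the 31 genes. The markers VIL1, CDX1, LGALS4, GPA33, PHGR1 and FABP1 lay under the filter on both arrays. Markers of hepatocytes (9 genes) and adipocytes (8 genes), the classic lipid-making cells, had median values of 4.96 and 4.42 in siYY1 and of 4.72 and 4.44 in siControl, and none was kept. One marker each of fibroblasts (of 8, COL1A2) and endothelial cells (of 8, EGFL7) and 2 of leukocytes (of 12, CD68 and CD79A) were kept. Of the reference genes, ACTB had 13.85 in siYY1 and 13.74 in siControl, and GAPDH had 17.28 in siYY1 and 17.30 in siControl. Both GAPDH values exceeded 16, the highest log2 value a 16-bit scanner can record, so a difference could be hidden. The same held for the reference genes YWHAZ and PPIA and for the markers EPCAM and KRT8. All 11 reference genes ran from -0.38 (YWHAZ) to 0.20 (GUSB), with 6 below 0 and a median of -0.03, and SDHA (-0.33), TBP (-0.23), HPRT1 (-0.21) and TFRC (-0.20) were among the lower ones.

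Cholesterol is built from acetyl-CoA through mevalonate to farnesyl diphosphate, then through squalene and lanosterol to the finished sterol. SREBPs are membrane-bound transcription factors of the endoplasmic reticulum. When sterols are low, the escort protein SCAP carries them to the Golgi, where proteases release the part that enters the nucleus and switches on sterol and fatty acid synthesis genes, usually together with the CCAAT-binding factor NF-Y. When sterols are plentiful, INSIG proteins hold SCAP in the endoplasmic reticulum, and INSIG1 is itself an SREBP target. Colorectal cancer cells commonly make much of their own lipid. In reporter experiments in cultured cells, YY1 has been described as a negative regulator of SREBP-responsive promoters, among them those of HMGCS1 and FDPS.

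Most of the genes were lower in siYY1. Of the 31, 24 lay below 0 (49.6% of kept genes did) and 7 above 0 (50.4% of kept genes), with a median of -0.26 against 0.00 over all kept genes. In ratio, the median gene stood at 0.836 of its siControl level. The lower genes included every measured enzyme of the mevalonate pathway, while the genes for the SREBPs themselves and for SCAP differed little. Past 1.5-fold, 4 genes were lower (3.78% of kept genes were) and 0 were higher (3.04% of kept genes), so that 4 of 31 were past it in either direction, against 6.82% of kept genes. The 4 were INSIG1, PMVK, INSIG2 and HSD17B7. At a smaller size of 1.2-fold, 15 of the 31 were lower (17.9% of kept genes) and 0 were higher (16.9% of kept genes). The plot of levels sets the arrays side by side for each gene.

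**Figure D1:**
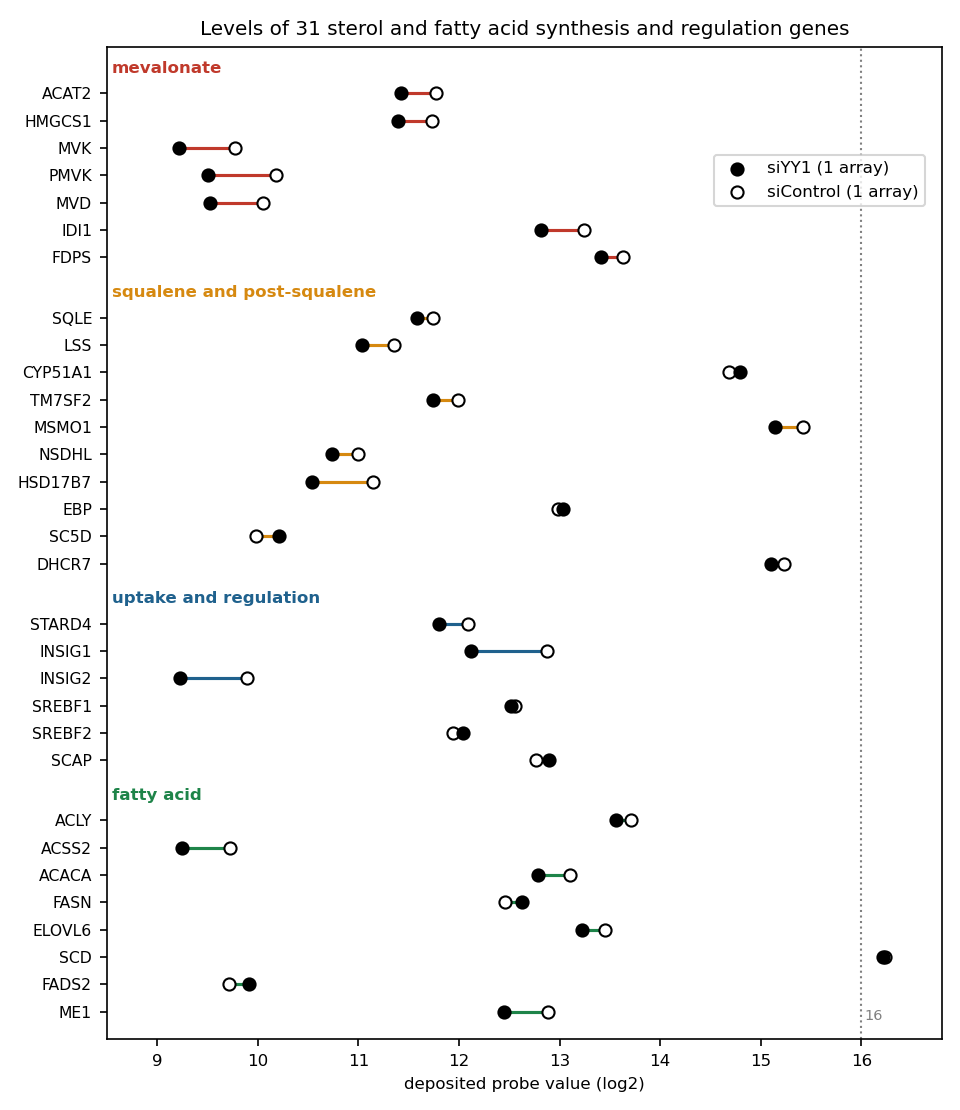
Deposited log2 value (x axis) of each of the 31 measured genes (rows, grouped by pathway step) in siYY1 (filled circles) and siControl (open circles), 1 array each, with a dotted line at 16, the highest log2 value a 16-bit scanner can record. The filled circle lies left of the open circle for 24 genes, and SCD is the only gene to the right of the dotted line, on both arrays.

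The genes of all 7 mevalonate pathway enzymes were lower in siYY1, with a median difference of -0.43, or 1.34-fold. ACAT2, which joins acetyl-CoA units in the cytosol, had 11.42 in siYY1 and 11.78 in siControl (difference -0.36). HMGCS1, the synthase that makes HMG-CoA, had 11.39 in siYY1 and 11.73 in siControl (difference -0.34). These first enzymes thus stood about 1.26-fold to 1.28-fold lower in siYY1. The 3 enzymes that follow mevalonate itself differed most. Mevalonate kinase, MVK, had 9.22 in siYY1 and 9.77 in siControl (difference -0.55). PMVK, the phosphomevalonate kinase that acts next, had 9.50 in siYY1 and 10.18 in siControl, a difference of -0.67 that made it 1.60-fold lower. Of 1469 kept genes of like level (mean log2 value within 0.5 of that of PMVK), 45, or 3.06%, had a lower difference. MVD, the decarboxylase that yields isopentenyl diphosphate, had 9.53 in siYY1 and 10.06 in siControl (difference -0.53). MVK (1.47-fold) and MVD (1.45-fold) therefore lay just short of the 1.5-fold rule.

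The last mevalonate enzymes were brighter. IDI1, the isomerase that supplies dimethylallyl diphosphate, had 12.81 in siYY1 and 13.24 in siControl (difference -0.43). Farnesyl diphosphate synthase, FDPS, had 13.41 in siYY1 and 13.63 in siControl, and its difference of -0.23 was the smallest of the 7. The RefSeq gene table lists 10 pseudogenes of FDPS and 3 of IDI1 by symbol, and probes may share them, so the single values of both genes are uncertain.

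The promoters of 3 neighbouring enzymes are shown because PMVK was past 1.5-fold and because MVK and MVD, picked after the motif counts were seen, carry several CCAAT boxes. Each is part of a RefSeq promoter window of build GRCh38.p14, which runs from 250 bases before a transcription start to 50 after it, and is printed 5′ to 3′ along the gene. Capitals mark CCAAT on either strand (ATTGG is its reverse complement), and below also an E-box, a sterol regulatory element or YY1 letters where present. GC boxes are left in lower case, and every stretch shown lies before the transcription start of its own window. That start need not be the outer end of the gene. In the RefSeq gene table PMVK spans chr1:154924740-154942658 and MVK spans chr12:109573272-109598125, so the stretches of both lie inside the listed gene. The PMVK stretch (chr1:154936720-154936869, minus strand) holds no capitals, the MVK stretch (chr12:109573574-109573763, plus strand) holds 5 CCAAT boxes, and the MVD stretch (chr16:88663162-88663261, minus strand) holds 3.
PMVK: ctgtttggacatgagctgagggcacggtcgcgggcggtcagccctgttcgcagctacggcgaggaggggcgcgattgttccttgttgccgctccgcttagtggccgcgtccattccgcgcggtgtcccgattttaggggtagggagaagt
MVK: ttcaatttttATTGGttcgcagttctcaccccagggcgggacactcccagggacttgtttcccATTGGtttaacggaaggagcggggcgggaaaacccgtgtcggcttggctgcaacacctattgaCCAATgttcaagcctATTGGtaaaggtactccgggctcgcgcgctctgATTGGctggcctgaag
MVD: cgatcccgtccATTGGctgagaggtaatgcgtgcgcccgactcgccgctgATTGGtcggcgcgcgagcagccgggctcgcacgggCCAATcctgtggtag

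From squalene onward the picture was more mixed. Of 10 measured enzymes 7 were lower in siYY1 and 3 higher, with a median of -0.21. SQLE, the squalene epoxidase and a rate-limiting enzyme, had 11.58 in siYY1 and 11.74 in siControl (difference -0.16). LSS, which closes the ring system to give lanosterol, had 11.04 in siYY1 and 11.36 in siControl (difference -0.32). The enzyme that removes the first methyl group of lanosterol was on the other side, since CYP51A1 had 14.79 in siYY1 and 14.69 in siControl (difference 0.10). The RefSeq gene table lists 3 pseudogenes of CYP51A1, so its value is uncertain. TM7SF2, a sterol reductase of the next reaction, had 11.74 in siYY1 and 11.99 in siControl (difference -0.25).

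All 3 genes of the demethylation complex that works next were lower in siYY1. MSMO1, the methylsterol oxidase, had 15.14 in siYY1 and 15.42 in siControl (difference -0.28). Of 207 kept genes of like level, 7.25% lay below that. NSDHL, the dehydrogenase, had 10.73 in siYY1 and 10.99 in siControl (difference -0.26). HSD17B7, the ketoreductase, had 10.54 in siYY1 and 11.15 in siControl, a difference of -0.61 that made it 1.52-fold lower, just past the rule. Among 1687 kept genes of like level, 3.44% had a lower difference than HSD17B7. It has 2 pseudogenes by symbol in the gene table, so this single value is uncertain.

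The final 3 enzymes differed by at most 0.22, and 2 of them stood higher in siYY1. EBP, the sterol isomerase, had 13.04 in siYY1 and 12.98 in siControl (difference 0.06). SC5D, the sterol desaturase, had 10.21 in siYY1 and 9.99 in siControl, and its difference of 0.22 was the highest of all 31 genes. DHCR7, which makes cholesterol from its immediate precursor, had 15.11 in siYY1 and 15.23 in siControl (difference -0.12). In the order of reactions, then, the median was -0.43 up to farnesyl diphosphate and -0.21 after it, as the bars by pathway step show. These medians lay closer, at -0.35 and -0.25, when only genes above the 75th percentile of level were kept. That filter removed MVK, PMVK, MVD and SC5D. The ranges of the 2 steps overlapped (-0.67 to -0.23 for the mevalonate enzymes, -0.61 to 0.22 for the later ones), and with 1 array per group the difference between them was not tested.

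**Figure D2:**
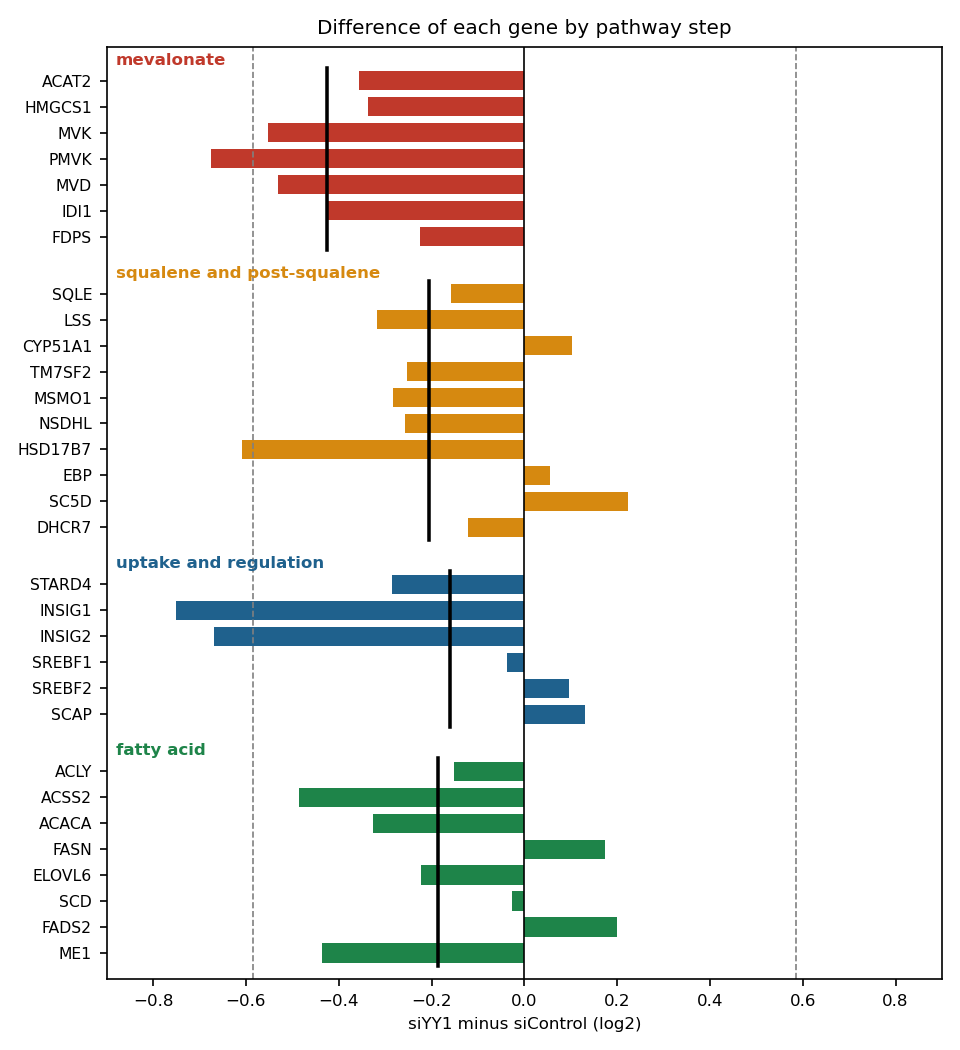
Difference in log2 value, siYY1 minus siControl (x axis), of each measured gene (rows) by pathway step, with the median of each step as a black vertical line and dashed lines at 1.5-fold in each direction. All 7 mevalonate bars point left, and the bars of PMVK, HSD17B7, INSIG1 and INSIG2 pass the left dashed line.

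The promoters of the demethylation complex are shown because all 3 genes were lower in siYY1 and because CCAAT boxes recur in them. The MSMO1 stretch (chr4:165327469-165327648, plus strand) holds 4 boxes. In the NSDHL stretch (chrX:152830823-152830992, plus strand) there are 5, of which a pair on opposite strands overlap. The HSD17B7 stretch (chr1:162790552-162790701, plus strand) holds 1. MSMO1 and NSDHL were picked after the motif counts were seen.
MSMO1: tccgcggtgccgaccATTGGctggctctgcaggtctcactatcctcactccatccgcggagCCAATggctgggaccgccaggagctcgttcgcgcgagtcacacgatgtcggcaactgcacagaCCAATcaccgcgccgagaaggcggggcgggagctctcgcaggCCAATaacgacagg
NSDHL: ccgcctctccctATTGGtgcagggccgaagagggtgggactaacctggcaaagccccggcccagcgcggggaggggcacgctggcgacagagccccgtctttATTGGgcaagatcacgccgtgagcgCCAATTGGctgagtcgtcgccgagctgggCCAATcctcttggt
HSD17B7: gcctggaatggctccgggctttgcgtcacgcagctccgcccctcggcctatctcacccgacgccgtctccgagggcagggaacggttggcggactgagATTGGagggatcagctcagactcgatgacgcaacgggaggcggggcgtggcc

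Among the genes of uptake and regulation, the 2 INSIG genes stood far from the SREBP and SCAP genes. INSIG1 had 12.12 in siYY1 and 12.88 in siControl, a difference of -0.75 or 1.68-fold, the lowest of all 31 genes. Only 15 of 1191 kept genes of like level, or 1.26%, had a lower difference. INSIG2, its paralog, had 9.23 in siYY1 and 9.90 in siControl, a difference of -0.67 or 1.59-fold. RNA of both INSIG genes was thus lower in siYY1 by like amounts, and INSIG protein was not measured. Of 1422 kept genes of like level, 3.59% lay below INSIG2. STARD4, a carrier that moves cholesterol between membranes and an SREBP target, had 11.81 in siYY1 and 12.09 in siControl (difference -0.28).

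The regulators on which the pathway depends were close to even. SREBF1, which encodes the SREBP best known for fatty acid genes, had 12.52 in siYY1 and 12.56 in siControl (difference -0.04). SREBF2, which encodes the SREBP best known for cholesterol genes, had 12.04 in siYY1 and 11.95 in siControl (difference 0.10). SCAP had 12.90 in siYY1 and 12.77 in siControl (difference 0.13). Between 43.0% and 70.6% of kept genes of like level lay below each of these 3, so none stood at an edge. These arrays measure RNA, and the processed, active form of the SREBP proteins was not measured. Without these 3 genes, 23 of the other 28 were lower and their median was -0.28.

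The promoters of INSIG1, INSIG2 and SREBF2 are shown together, the first 2 as genes past 1.5-fold and the third, picked after the motif counts were seen, as the one measured gene whose window holds the sterol regulatory element letters TCACNCCAC. In the INSIG1 stretch (chr7:155297678-155297847, plus strand) the capitals are a CCAAT box and an E-box. In the INSIG2 stretch (chr2:118088430-118088549, plus strand), from the second of its 2 windows and spanning the listed gene start (118088471), they are the YY1 letters AANATGGCG. In the SREBF2 stretch (chr22:41832955-41833054, plus strand) they are the sterol regulatory element and a CCAAT box.
INSIG1: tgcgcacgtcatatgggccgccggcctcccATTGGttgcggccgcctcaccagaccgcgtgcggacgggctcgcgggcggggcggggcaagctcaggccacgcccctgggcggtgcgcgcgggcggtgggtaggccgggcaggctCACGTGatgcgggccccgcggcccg
INSIG2: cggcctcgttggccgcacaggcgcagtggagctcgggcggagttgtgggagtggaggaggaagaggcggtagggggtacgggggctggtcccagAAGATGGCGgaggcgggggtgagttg
SREBF2: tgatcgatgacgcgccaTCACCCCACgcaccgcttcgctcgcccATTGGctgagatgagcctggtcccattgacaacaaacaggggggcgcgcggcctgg
The YY1 letters were also in the windows of EBP and SREBF2, so 3 measured genes held them, with differences of -0.67 (INSIG2), 0.06 (EBP) and 0.10 (SREBF2).

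Fatty acid synthesis genes were lower in siYY1 in 6 of 8 measured cases, with a median of -0.19 and none past 1.5-fold. The suppliers of acetyl-CoA came first. ACLY, which cleaves citrate in the cytosol, had 13.56 in siYY1 and 13.71 in siControl (difference -0.15). ACSS2, which makes acetyl-CoA from acetate, had 9.24 in siYY1 and 9.73 in siControl, and its difference of -0.49 (1.40-fold) was the lowest of this step. The committed enzyme ACACA, acetyl-CoA carboxylase, had 12.78 in siYY1 and 13.11 in siControl (difference -0.33). The next enzyme lay on the other side, since FASN, the fatty acid synthase, had 12.63 in siYY1 and 12.46 in siControl (difference 0.17).

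The enzymes that lengthen and desaturate the product did not move as a block. ELOVL6, an elongase of palmitate, had 13.23 in siYY1 and 13.45 in siControl (difference -0.22). SCD, the desaturase that makes oleate, had 16.21 in siYY1 and 16.24 in siControl (difference -0.03). Both SCD values exceeded 16, the highest log2 value that a 16-bit scanner can record, so a difference could be hidden, and the gene table lists 1 pseudogene of SCD. FADS2, a desaturase of polyunsaturated fatty acids, had 9.92 in siYY1 and 9.72 in siControl (difference 0.20). ME1, the cytosolic malic enzyme that supplies NADPH, had 12.45 in siYY1 and 12.88 in siControl, a difference of -0.44, and 5.27% of 1139 kept genes of like level lay below it. The promoter of ACSS2, the gene of this step with the largest difference, is shown from the first of its 2 windows (chr20:34874839-34874988, plus strand), with 1 CCAAT box in capitals.
ACSS2: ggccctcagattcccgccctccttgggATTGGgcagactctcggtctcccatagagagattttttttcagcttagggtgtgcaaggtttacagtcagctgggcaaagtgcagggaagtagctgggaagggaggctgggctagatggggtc
The second window of ACSS2 holds no CCAAT.

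The size of the differences went with level on the array. The 9 genes with a mean log2 value under 11 had a median of -0.53, the 13 between 11 and 13 had -0.28, and the 9 at 13 or above had -0.15. The share below 0 was nearly the same in these bands, at 77.8%, 76.9% and 77.8%, against 51.2%, 48.8% and 46.0% of kept genes in the same bands. Kept genes also scattered less when bright, since 4.92%, 2.87% and 1.71% of them were at least 1.5-fold lower. A fixed fold was thus passed more often by dimmer genes. The part of signal level in the order of the steps was not tested.

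**Figure D3:**
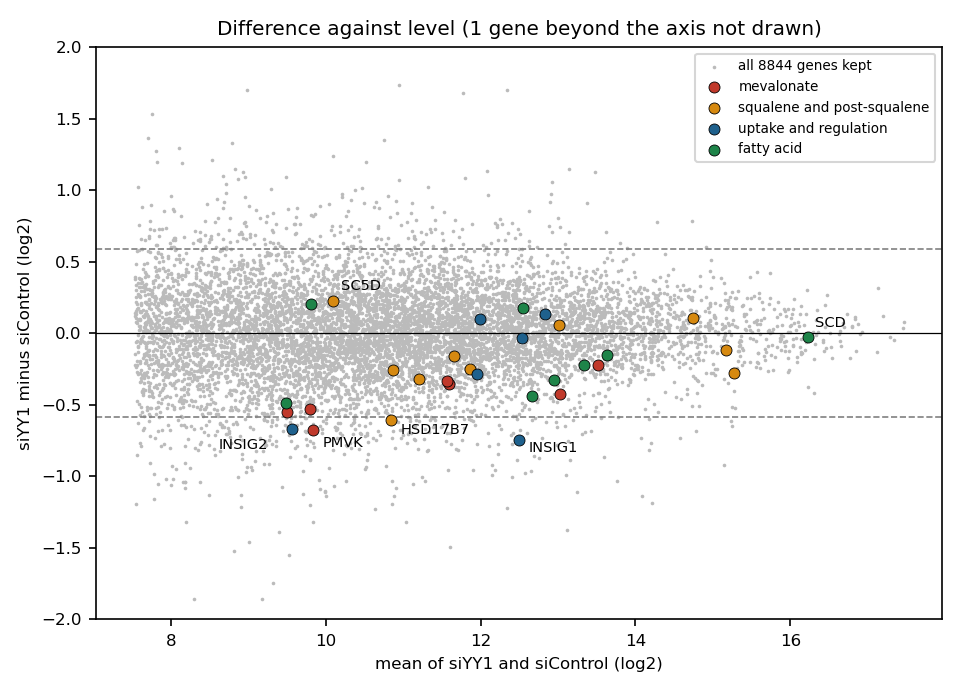
Difference in log2 value, siYY1 minus siControl (y axis), against the mean log2 value of both arrays (x axis), for the 8844 kept genes (grey) and the 31 measured genes coloured by pathway step, with dashed lines at 1.5-fold. Of the coloured points 24 lie below 0, INSIG1 is the lowest, and 1 grey gene lies beyond the axis.

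Neighbouring branches of the pathway did not share one direction. Over all kept genes, 49.6% lay below 0, 3.78% were at least 1.5-fold lower and 3.04% at least 1.5-fold higher. Proteins that process SREBPs or degrade sterol-regulated enzymes had 7 of 19 kept genes below 0 and a median of 0.14, with 1 gene past 1.5-fold in each direction. SEC23A, a coat protein of vesicles that leave the endoplasmic reticulum, had 12.60 in siYY1 and 13.38 in siControl (difference -0.78), and UBE2G2, a ubiquitin-conjugating enzyme of protein degradation at that membrane, had 12.65 in siYY1 and 11.89 in siControl (difference 0.76). At the ends of that list stood also RNF139, a sterol-regulated ubiquitin ligase (-0.34), and SEC24C, a cargo-binding coat protein (0.41). Above 0 lay 12 of the 19, against 50.4% of kept genes.

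The isoprenoid branch draws on farnesyl diphosphate for prenyl groups, dolichol and coenzyme Q. It had 9 of 15 kept genes below 0 (49.6% of all kept genes) and a median of -0.10. It again had 1 gene past 1.5-fold in each direction, against 3.78% lower and 3.04% higher over all kept genes. Its lowest genes were DOLPP1, a phosphatase of dolichol recycling (-0.79), and COQ2, a prenyltransferase of coenzyme Q synthesis (-0.52), and its highest were PDSS2, which helps build the tail of coenzyme Q (0.65), and ZMPSTE24, a protease of prenylated prelamin A (0.46). DOLPP1 had 7.47 in siYY1, under the filter value, so the size of its difference is uncertain.

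Sterol efflux and LXR genes had 4 kept of 7 in the table, and none of the 4 was below 0, with a median of 0.40. ABCA7, a lipid transporter, had 9.07 in siYY1 and 8.13 in siControl (difference 0.94), and it was the only one past 1.5-fold. The others were TBL1XR1, a subunit of corepressor complexes (0.575, just short of the rule), RXRB, the partner receptor (0.22), and LPCAT3, which remodels membrane phospholipids (0.01). ABCA1, ABCG1 and NR1H3, the other 3 genes in the table, were under the filter on level, with values from 3.89 to 6.98 in siYY1 and from 4.14 to 6.42 in siControl. Their differences were -0.25 (ABCA1), -0.11 (ABCG1) and 0.56 (NR1H3), all at levels that olfactory receptor genes also reached. The plot of gene lists places these branches beside the 4 steps.

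**Figure D4:**
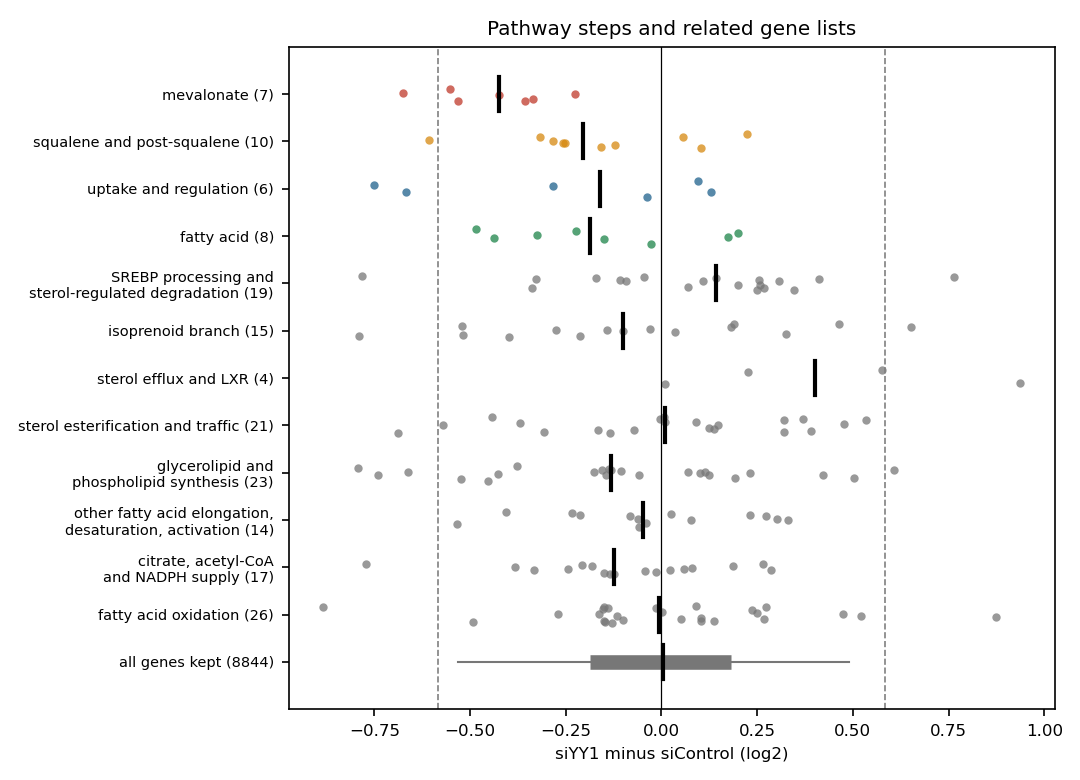
Difference in log2 value, siYY1 minus siControl (x axis), of each kept gene (dots) in the 4 pathway steps and in 8 related lists (rows, number of genes in parentheses), with black lines at the medians and dashed lines at 1.5-fold. The last row gives all kept genes, with a thick bar from the 25th to the 75th percentile and a thin line from the 5th to the 95th, and the mevalonate row is the only row of a pathway step with every dot left of 0.

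Beyond their differences, most measured genes with a promoter window held CCAAT letters near their starts. Of the 31, 28 had at least 1 RefSeq promoter window (39 windows in all), and 21 of these (75%) held CCAAT on either strand. The share was 43.8% of 7462 kept genes with a window (10846 windows) and 34.6% of all 35116 windows. A gene counted if any of its windows held the motif. Shares of genes and shares of single windows, here and below, are therefore unlike measures. Among the sterol synthesis enzymes 13 of 15 held CCAAT, with PMVK and CYP51A1 the exceptions, and 10 of the 15 held at least 2 boxes in a single window. Among the fatty acid genes 5 of 7 held CCAAT. Among the genes of uptake and regulation 3 of 6 did, near the share of kept genes, and 1 of the 6 held at least 2 boxes. The only PMVK window lies inside the listed gene, so the outer end of that gene was not searched. At least 2 boxes were found in 14 of the 28 genes, against 17.3% of kept genes. The GC box GGGCGG was in 27 of 28 genes (96.4%), against 78.6% of kept genes and 45.0% of all windows. The E-box CACGTG was in 4 genes (14.3%), against 13.2% of kept genes and 7.26% of all windows.

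The sterol regulatory element letters TCACNCCAC were in 1 gene (3.57%), against 1.39% of kept genes and 1.13% of all windows, and the YY1 letters AANATGGCG in 3 (10.7%), against 9.42% of kept genes and 3.19% of all windows. Each motif was searched on both strands and overlapping matches were counted. A match is a description of the letters in these windows and does not show binding, and other spellings of each motif were not searched. The genes with CCAAT had a median difference of -0.28 (21 genes) and those without it -0.22 (7 genes). Over the kept genes the medians were 0.01 with CCAAT and 0.00 without, and 48.4% and 50.7% of them lay below 0.

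**Figure D5:**
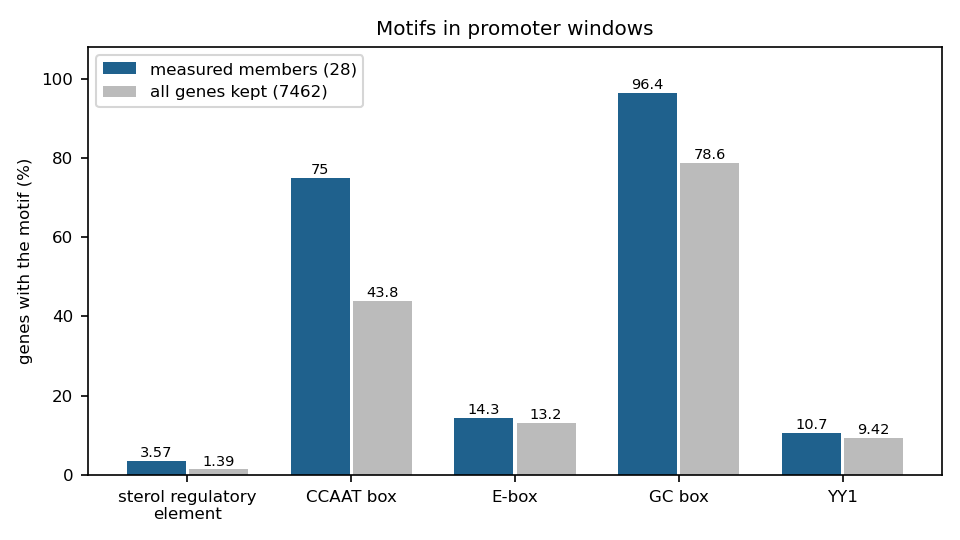
Share of genes (y axis, %) with each motif in at least 1 promoter window, for the 28 measured members of the set with a window, 6 of them genes of uptake and regulation (blue), and for the 7462 kept genes with a window (grey). The CCAAT box shows the largest gap, 75% against 43.8%.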

How the data were processed

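RNA of SW48 cells was measured on 2 arrays, 1 for siYY1 and 1 for siControl, grouped by sample title. The values the authors deposited, 1 for each probe set, were used as log2 values. The scale was read from the values, which ran from 2.32 to 17.97 in siYY1 and from 2.46 to 17.90 in siControl, and once sorted, the arrays differed by 0.153 at most. The sources used here do not state the software, background correction, scaling or log base, so every fold assumes log2 as it stands. The direction of every difference follows the sample titles. The median over all probes was 7.10 in siYY1 and 7.11 in siControl. Values above 16 occurred at 107 probes in siYY1 and 112 in siControl.

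Of 21448 probes, 17709 had 1 symbol in GEO's platform annotation, 0 had more than 1 and 3739 are unnamed here. Symbols were checked through Entrez identifiers in the RefSeq gene table of GRCh38.p14, which changed 0. Probes of the same gene were averaged (20 genes), and each measured member had 1 probe. Genes were kept at a mean log2 value of at least 7.54. Every measured member is named, and for each related list up to 2 kept genes at each end. Members and lists were chosen with earlier results of these data known. No test was possible. Promoter windows came from RefSeq, GRCh38.p14, matched by symbol.

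The steps were tested on simulated data. Alternatives were other fold thresholds and level filters, quantile normalization, median and lowess centring (fraction 0.3), the brightest probe of a gene and, chosen after seeing the data, leaving out genes above 16. Versions were Python 3.11.15, statsmodels 0.14.6, pandas 2.3.3, numpy 2.4.6 and matplotlib 3.10.9.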

Additional observations from a re-analysis of the deposited data

How the results depend on the processing

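Only quantile normalization, median centring and lowess centring could change a measured gene's difference, and every sign stayed the same under them. The other alternatives left each kept member's difference as it was by construction, since no member had several probes. They are therefore no check on its sign. Over 8 alternatives that change values or filters, the median of the kept members ran from -0.27 to -0.24, that of the mevalonate enzymes from -0.44 to -0.35, that of the squalene and post-squalene enzymes from -0.25 to -0.21 and that of the fatty acid genes from -0.22 to -0.19. Filtering at the 75th percentile of level kept 4422 genes, of which 117 were at least 1.5-fold lower and 87 higher. Of the members still kept, 19 were below 0 and 5 above, and 2 were at least 1.5-fold lower. The median of the uptake and regulation genes moved to -0.037, because INSIG2 was no longer kept. With no filter, 690 of 17687 genes were at least 1.5-fold lower and 704 higher, and 4 of the 31 members were lower and 0 higher. A threshold of 1.2-fold gave 15 of the 31 members lower, beside 1583 of 8844 kept genes lower (17.9%) and 1498 higher (16.9%). At 2-fold, 0 of the 31 members were lower, beside 51 of 8844 kept genes lower and 33 higher. No paired analysis was possible because each group had 1 array. Sampling error between cultures could not be measured, and values above 16 may understate differences.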

Other observations

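Other lipid genes gave a background to the synthesis enzymes. For the counts in this section, 49.6% of all kept genes lay below 0, 3.78% were at least 1.5-fold lower and 3.04% higher. Glycerolipid and phospholipid synthesis genes had 14 of 23 kept genes below 0 and a median of -0.13, with 3 at least 1.5-fold lower and 1 higher. The lowest were CHPT1, a choline phosphotransferase (9.45 in siYY1 and 10.24 in siControl, difference -0.79), and GPAT3, which starts triglyceride synthesis (-0.74). The highest were AGPAT1, which makes phosphatidic acid (0.61), and DGAT2, which completes triglycerides (0.50). Genes that supply citrate, acetyl-CoA and NADPH had 11 of 17 below 0 and a median of -0.12. Of these, ME3, a mitochondrial malic enzyme, was the lowest (8.91 in siYY1 and 9.69 in siControl, difference -0.77), followed by the carbohydrate-responsive factor MLXIPL (-0.38), and the highest were MID1IP1, which activates acetyl-CoA carboxylase (0.29), and the glucose sensor MLXIP (0.27).

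Other elongation, desaturation and activation genes had 8 of 14 below 0, a median of -0.05 and none past 1.5-fold, from FABP5, a fatty acid carrier (-0.53), and ACSL1, an acyl-CoA synthetase (-0.41), to HACD3, a dehydratase of elongation (0.30), and PPT1, a lysosomal thioesterase (0.33). Sterol esterification and traffic genes had 9 of 21 below 0 and a median of 0.01, from the caveolar protein gene CAV1 (-0.69) and OSBPL9 (-0.57) to LIPA, the lysosomal acid lipase (0.48), and SCARB2, a lysosomal membrane protein (0.53). Fatty acid oxidation genes were evenly split, with 13 of 26 below 0 and a median of -0.01. ACAD10 was the lowest (8.47 in siYY1 and 9.36 in siControl, difference -0.88) and ACADM, the medium-chain dehydrogenase, the highest (10.06 in siYY1 and 9.19 in siControl, difference 0.87), with MLYCD at -0.49 and the receptor gene PPARA at 0.52.

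The 703 kept genes with the YY1 letters AANATGGCG in a promoter window had a median difference of 0.04, with 45.4% below 0, and the 6759 without them had a median of 0.00, with 50.1% below 0. These values describe the arrays and were not tested.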
